A study of Mus musculus with 9 samples.

Results

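Transforming growth factor beta (TGF-beta) signalling was followed in mouse heart nuclei through 10 genes: the ligand genes Tgfb1, Tgfb2, Tgfb3 and Inhba, the matrix gene Ltbp2, the receptor genes Tgfbr1 and Tgfbr2, the signal transducer Smad3, and the negative regulators Smad7 and Skil. The genes were taken by name, and all 10 were present among the 32285 genes of the count tables. Hearts came from 9 male wild-type mice aged 9 to 10 weeks, 3 in each of 3 groups. In the NS-Sham group the chest was opened without occlusion and the mice received normal saline. In the NS-I/R group the left anterior descending coronary artery was occluded for 45 min and reperfused for 24 h, also with saline. In the Enpa-I/R group the same injury was made in mice given 5 mg/kg enpatoran, an antagonist of the RNA-sensing receptor TLR7. All mice had 2 intraperitoneal injections, the first 1 h before ischemia, and the submitters' texts differ on the timing of the second. No sham mice received enpatoran, so its effect on uninjured hearts was not measured. Whole hearts were frozen and powdered, and single nuclei were read by 3′ RNA sequencing on the 10x Chromium platform.

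TGF-beta ligands are secreted in a latent form, tied to the matrix through binding proteins of the LTBP family, and are freed by integrins, proteases and thrombospondin. The free ligand joins the type II receptor Tgfbr2 to the type I receptor Tgfbr1, which phosphorylates Smad2 and Smad3. The phosphorylated Smads enter the nucleus with Smad4 and induce matrix genes, and also Smad7 and Skil, which restrain the pathway. Inhba encodes the subunit of activin A, which uses activin receptors but the same Smads. Ltbp2 belongs to the LTBP family by sequence, but unlike its relatives it does not bind the latent ligand. In the injured heart the pathway is best known for turning fibroblasts into matrix-producing cells.

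The promoters of Tgfb2, Inhba and Ltbp2, the members with the largest rises over all nuclei, are printed as the 250 bases upstream of the annotated start (RefSeq, GRCm38.p6), 5′ to 3′ on the strand of the gene. Capitals mark 2 of 4 motifs searched on both strands, the Smad-type box CAGACA and the TATA-type box TATAAA.
Tgfb2, chr1:186705990-186706239, minus strand: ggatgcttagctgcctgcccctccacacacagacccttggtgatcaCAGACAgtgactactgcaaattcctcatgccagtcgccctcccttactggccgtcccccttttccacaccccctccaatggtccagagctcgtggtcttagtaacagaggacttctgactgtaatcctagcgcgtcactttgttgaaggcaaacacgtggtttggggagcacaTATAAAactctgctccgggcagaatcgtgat
Inhba, chr13:16011601-16011850, plus strand: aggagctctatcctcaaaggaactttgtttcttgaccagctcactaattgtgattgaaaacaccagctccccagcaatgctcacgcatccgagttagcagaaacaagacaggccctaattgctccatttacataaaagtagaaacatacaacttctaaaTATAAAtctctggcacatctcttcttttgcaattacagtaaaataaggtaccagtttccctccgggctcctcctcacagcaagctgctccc
Ltbp2, chr12:84876492-84876741, minus strand: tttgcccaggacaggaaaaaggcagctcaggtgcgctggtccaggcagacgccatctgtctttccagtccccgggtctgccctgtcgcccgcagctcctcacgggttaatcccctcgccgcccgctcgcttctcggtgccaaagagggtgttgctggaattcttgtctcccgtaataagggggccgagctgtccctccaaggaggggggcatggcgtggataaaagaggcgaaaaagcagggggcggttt
In Tgfb2, CAGACA began 204 bases and TATAAA 31 bases upstream of the start. In Inhba, TATAAA began 91 bases upstream. The Ltbp2 window held none of the 4 motifs, and the AP-1 motif TGANTCA and the CRE motif TGACGTCA were found in none of these 3 windows. Of 32851 windows of the same length, 17.1% held CAGACA, 12.4% TATAAA, 6.75% TGANTCA and 1.55% TGACGTCA. RefSeq windows were matched for 7 of the 10 members, and for Tgfb3, Smad7 and Skil no window was matched. A match is a description of the letters, and no binding was measured here.

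The libraries held 19651794 to 38970153 unique molecular identifiers (UMIs) in 4079 to 8198 barcodes, of which 3160 to 6471 nuclei were kept, with a median of 2365 to 3263.5 UMIs. Clusters were named from marker genes as cardiomyocyte-, endothelial-, fibroblast-, macrophage-, pericyte-, smooth muscle-, endocardial-, lymphatic endothelial- and neutrophil-like, and the 10 members were kept out of clustering. All 8 cardiomyocyte markers were detected in every library. One cluster of 2475 nuclei, led by the matrix gene Tnc, passed the detection rule for all 7 fibroblast markers but had none of them, and a lymphatic marker, among its leading genes, so it was left unnamed and is called the Tnc-high cluster. It made up 0.136% of nuclei in NS-Sham (18 nuclei), 9.9% in NS-I/R hearts (1522) and 6.98% with enpatoran (935), while fibroblast-like nuclei fell in number from 2748 to 1820 and 1702. The fibroblast-like class was therefore tested both alone and together with that cluster. Another cluster, of 351 nuclei led by Hspa1a and Hspa1b, was also left unnamed. It held 1 nucleus in sham, 341 in NS-I/R (218, 87 and 36 by heart) and 9 with enpatoran. These nuclei enter the sums over all nuclei but no class. NS-I/R replicate 3 stood apart from the other NS-I/R hearts: its counts differed from theirs by a chi-square of 57.4 and 67.5 per degree of freedom, against 8.61 to 20.8 for all other pairs within a group. Several results that it decides are given with and without it, and the calls gained without it are counted below. Pairs of libraries shared 5 to 20 barcodes, at most 0.343%. Neutrophil-like nuclei numbered 6 in sham, 1355 in NS-I/R hearts and 325 with enpatoran.

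Levels are UMIs of a gene per 1000000 UMIs (CPM) in each heart and class. In the classes tested in all hearts, this base held only UMIs of the tested genes, scaled by edgeR's TMM factors. The same was done over all nuclei and in fibroblast-like nuclei with the Tnc-high cluster. In single clusters, neutrophil-like nuclei, the Tnc-high cluster and classes that were not tested, the base was all UMIs, unscaled. Levels on these unlike bases are not strictly comparable. Values are listed for replicates 1, 2 and 3 in that order. In neutrophil-like nuclei the neutrophil markers summed to 5090 to 7430 CPM in NS-I/R and 11300 to 14700 CPM in Enpa-I/R. Endothelial markers summed there to 2320 to 4350 and 1950 to 2590 CPM, against 7370 to 8290 and 8000 to 8560 CPM in endothelial-like nuclei. The part of endothelial RNA in the levels given below for neutrophil-like nuclei was not tested. Differences are log2 fold changes with standard errors from edgeR's quasi-likelihood test on counts summed per heart, called at a Benjamini-Hochberg adjusted p under 0.05 over all genes tested in the class. Each group has 3 hearts, so n = 3 throughout. The comparisons share hearts: NS-I/R enters both the injury and the enpatoran comparison, so a heart that is high there pushes both in opposite directions.

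Over all nuclei, injury with saline raised 6 of the 10 members and lowered 1, against 47.8% of 18066 genes called in either direction. Ltbp2 rose 4.24-fold, Tgfb2 3.96-fold, Inhba 3.67-fold, Tgfb1 1.76-fold, Smad7 1.49-fold and Tgfbr2 1.35-fold. Tgfb3 fell 1.45-fold. Tgfbr1, Smad3 and Skil were not called. The median member changed by 0.51 on the log2 scale, and the median gene by 0.00. More transcripts per nucleus and more nuclei of an expressing class cannot be told apart in this sum, and the values by class follow.

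Tgfb2 was the ligand with the largest change, and it lay in cardiomyocyte-like nuclei. Its level there was 36.4, 32.8 and 31.6 CPM in the NS-Sham hearts, 562, 421 and 154 CPM in NS-I/R, and 108, 108 and 144 CPM in Enpa-I/R. All 6 injured hearts were above all sham hearts, and each NS-I/R heart was above each Enpa-I/R heart, though NS-I/R replicate 3 only narrowly. Injury raised Tgfb2 11.3-fold (log2 3.50 ± 0.39, adjusted p = 0.000113, edgeR), and without NS-I/R replicate 3 the log2 change was 3.86. With enpatoran the level was 3.15-fold lower than with saline (log2 -1.66 ± 0.36, adjusted p = 0.0184) and still 3.58-fold above sham (1.84 ± 0.37, adjusted p = 0.00786). The enpatoran difference was not called when NS-I/R replicate 1 or 2 or any Enpa-I/R heart was left out (-1.26 to -1.81, adjusted p 0.0557 to 0.0701), nor in a fit of the 6 injured hearts alone (adjusted p = 0.0592). Without NS-I/R replicate 3 it was -2.02 (adjusted p = 6.16e-06).

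In UMIs, cardiomyocyte-like nuclei held 0.34 Tgfb2 molecules each in sham, 4.13 in NS-I/R hearts and 1.23 with enpatoran. They gave 34.8% of all Tgfb2 UMIs in sham hearts, 80.9% in NS-I/R hearts and 69.4% with enpatoran. The class was not the same mixture in each group. A cluster led by Mhrt and Kcnd2 held 66.5% of its sham nuclei and 0.341% of its NS-I/R nuclei, and a cluster led by Xirp2 held 0.879% of them in sham, 47.0% in NS-I/R hearts and 23.3% with enpatoran. In that Xirp2 cluster Tgfb2 reached 890, 642 and 275 CPM in NS-I/R and 253, 259 and 255 CPM in Enpa-I/R, and the 29 sham nuclei of the cluster gave 147, 512 and 265 CPM. The difference was also seen within 1 cluster that all groups filled: in the one led by Mhrt and Rbm20 the level was 21.8, 17.6 and 20.1 CPM in NS-Sham, 347, 188 and 161 CPM in NS-I/R, and 51.9, 59.9 and 90.1 CPM in Enpa-I/R, with no overlap between groups. Nuclei of that cluster were shallow, with a median of 2150 UMIs. The medians were 10549 in the Xirp2, 8810 in the Ppargc1a and 10847 in the Mhrt and Kcnd2 cluster. Whether the shallow cluster mixes nuclei of different states, or holds free RNA, was not tested. A cluster led by Ppargc1a, 53.5% of Enpa-I/R and 36.7% of NS-I/R cardiomyocyte-like nuclei, overlapped in all groups, at 67.9, 131 and 61.1 CPM in sham, 59.9, 93.2 and 39.6 CPM in NS-I/R and 31.1, 47.6 and 83.2 CPM in Enpa-I/R. The summed level of the 8 cardiomyocyte markers in the class moved too, from 55600 to 61800 CPM in sham to 35900 to 47300 CPM in NS-I/R and 53900 to 56500 CPM in Enpa-I/R, and its part in the Tgfb2 result was not tested.

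**Figure D1:**
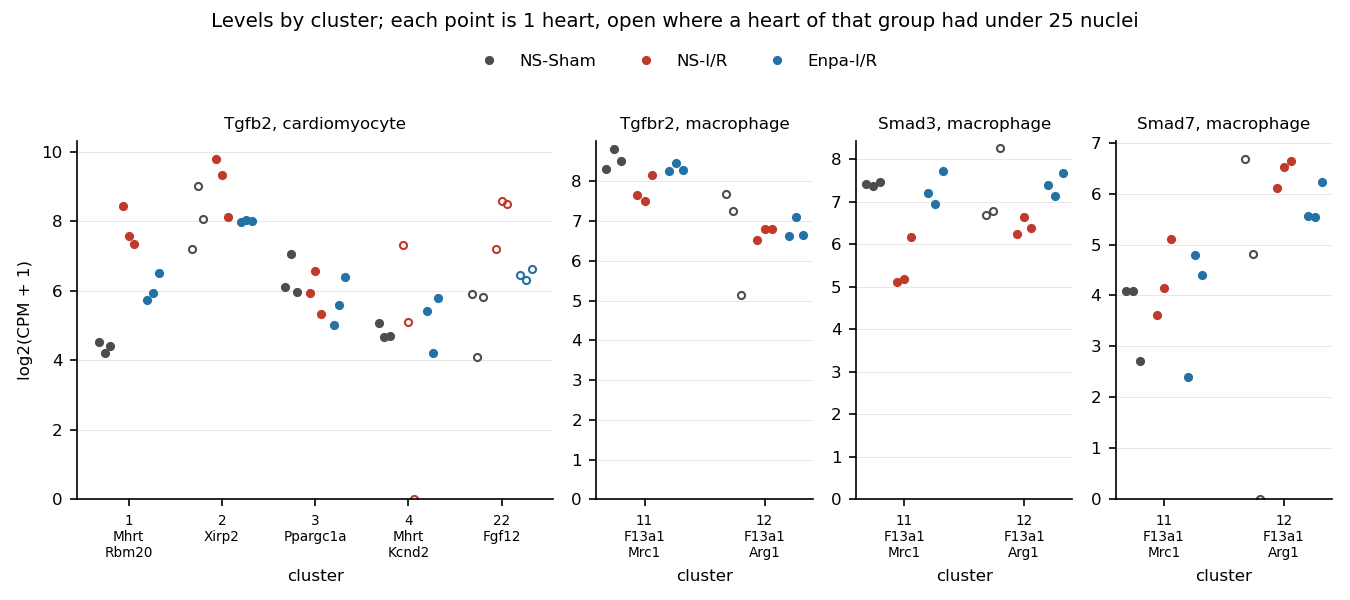
Tgfb2 in the 5 cardiomyocyte-like clusters and Tgfbr2, Smad3 and Smad7 in the 2 macrophage-like clusters, as log2(CPM + 1) with 1 point per heart and open symbols where a heart of the group had under 25 nuclei in the cluster. Tgfb2 of NS-I/R hearts is highest, on average, in the Xirp2 cluster, and Smad3 of NS-I/R hearts lies below that of Enpa-I/R hearts in both macrophage-like clusters.

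In sham hearts Tgfb2 was highest in smooth muscle-like (222 CPM), lymphatic (157 CPM) and fibroblast-like nuclei (118 CPM), whose ranges overlapped one after the other, and cardiomyocyte-like nuclei stood second to last at 33.6 CPM. In NS-I/R hearts they stood first at 379 CPM, overlapping with smooth muscle-like nuclei at 209 CPM but not with fibroblast-like nuclei at 119 CPM. Endothelial-like nuclei held 33.2, 32.1 and 45.8 CPM in sham, 29.6, 41.5 and 33.7 CPM in NS-I/R, and 15.3, 16.5 and 18 CPM in Enpa-I/R, where every heart was below every heart of the other groups. The difference of Enpa-I/R from NS-I/R was -1.08 ± 0.20 (adjusted p = 0.0102, edgeR) and from sham -1.15 ± 0.20 (adjusted p = 0.00245). The former was not called without NS-I/R replicate 2 (-0.94, adjusted p = 0.0501) or Enpa-I/R replicate 1 (-1.01, adjusted p = 0.0548). Leukocyte classes, not known as sources of Tgfb2, also carried it. Neutrophil-like nuclei gave 45.1 CPM in NS-I/R and 10.1 CPM in Enpa-I/R, and macrophage-like nuclei 5.94 CPM in sham, 15.6 CPM in NS-I/R and 8.02 CPM with enpatoran. The endothelial-like level in NS-I/R, at 35.0 CPM, was thus no higher than in neutrophil-like nuclei, and the part of free RNA in it was not tested. The endothelial-like class also changed its makeup: 1 cluster held 70.8% of it in sham, 8.46% in NS-I/R hearts and 22.7% with enpatoran. In the cluster led by St6galnac3, 13.7% to 24.7% of the class, Tgfb2 was 122, 164 and 207 CPM in sham and 28.7, 42.4 and 44.7 CPM in NS-I/R, with 17.9, 29.7 and 31.1 CPM in Enpa-I/R.

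Among the 8 classes tested in all hearts, the ligand gene Tgfb1 had its highest mean in macrophage-like nuclei in NS-Sham and NS-I/R hearts, and the same mean of 178 CPM there and in lymphatic endothelial-like nuclei with enpatoran. The hearts' values of these 2 classes overlapped in every group, with lymphatic means of 78.3 CPM in sham and 153 CPM in NS-I/R. In macrophage-like nuclei it stood at 139, 146 and 119 CPM in NS-Sham, 223, 225 and 188 CPM in NS-I/R and 192, 186 and 156 CPM in Enpa-I/R. The injured groups overlapped each other and lay above sham. The rise with injury was 1.55-fold (0.64 ± 0.16, adjusted p = 0.00604, edgeR), and Enpa-I/R did not differ from NS-I/R by the test (-0.25, adjusted p = 0.36). In the macrophage-like cluster led by F13a1 and Arg1, which grew from 5.35% of the class in sham to 51.9% in NS-I/R hearts and 37.7% with enpatoran, Tgfb1 was 273, 277 and 241 CPM in NS-I/R and 275, 254 and 226 CPM in Enpa-I/R. In the cluster led by F13a1 and Mrc1 it was 136, 131 and 119 CPM in sham, 171, 172 and 101 CPM in NS-I/R and 142, 141 and 108 CPM in Enpa-I/R, which overlap.

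Pericyte-like nuclei showed the largest Tgfb1 change. They held 39.1, 32.4 and 34.0 CPM in NS-Sham, 88.6, 84.4 and 85.2 CPM in NS-I/R and 59.1, 58.8 and 52.1 CPM in Enpa-I/R, so the groups stood apart in that order. Injury raised the level 2.46-fold (1.30 ± 0.19, adjusted p = 0.000158, edgeR). The lower level with enpatoran was not called (-0.60 ± 0.18, adjusted p = 0.0617). Fibroblast-like nuclei rose from 28.3, 31.9 and 30.1 CPM to 57.9, 38.5 and 43.9 CPM in NS-I/R (0.63 ± 0.17, adjusted p = 0.018, edgeR) and to 49.3, 52.9 and 47.4 CPM in Enpa-I/R (0.72 against sham, adjusted p = 0.0311). The first of these calls was lost without NS-Sham replicate 1 or 3 or NS-I/R replicate 1 (0.44 to 0.62, adjusted p 0.0509 to 0.102). The second was lost without any sham or any Enpa-I/R heart (0.68 to 0.77, adjusted p 0.0835 to 0.119). With the Tnc-high cluster added, the change from sham was 0.79 in NS-I/R (adjusted p = 0.0037, edgeR), called in all 14 alternatives. In Enpa-I/R it was 0.72 (adjusted p = 0.013), a call lost in 1 of 14 alternatives, without NS-Sham replicate 1 (0.69, adjusted p = 0.0503). Neutrophil markers, near 0 in these classes in sham, rose with injury, from 1.22 to 1.79 CPM to 101 to 496 CPM in pericyte-like nuclei and from 3.63 to 4.08 CPM to 62.3 to 224 CPM in fibroblast-like nuclei. As neutrophil-like nuclei themselves carried Tgfb1 at 193, 162 and 145 CPM in NS-I/R and 155, 190 and 154 CPM in Enpa-I/R, these values move with the result, and their part in it was not tested.

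Endothelial-like nuclei, the source of 38.1% of Tgfb1 UMIs in sham hearts, kept close levels of 86.7, 87.7 and 98.8 CPM in the 3 groups and were not called. In NS-I/R the UMIs came from macrophage-like (20.7%), endothelial-like (18%), Tnc-high (11.1%) and neutrophil-like nuclei (10.8%). Cardiomyocyte-like nuclei, the class with the lowest Tgfb1 level, held 4.67, 4.81 and 5.65 CPM in sham and 13.1, 8.47 and 6.58 CPM in NS-I/R (0.89 ± 0.30, adjusted p = 0.0315, edgeR). That call was lost in 7 of 17 alternatives, among them leaving out any sham heart, NS-I/R replicate 1 or NS-I/R replicate 2 (0.59 to 0.97, adjusted p 0.0529 to 0.136) and setting the mitochondrial limit at 20% (0.38, adjusted p = 0.199).

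**Figure D2:**
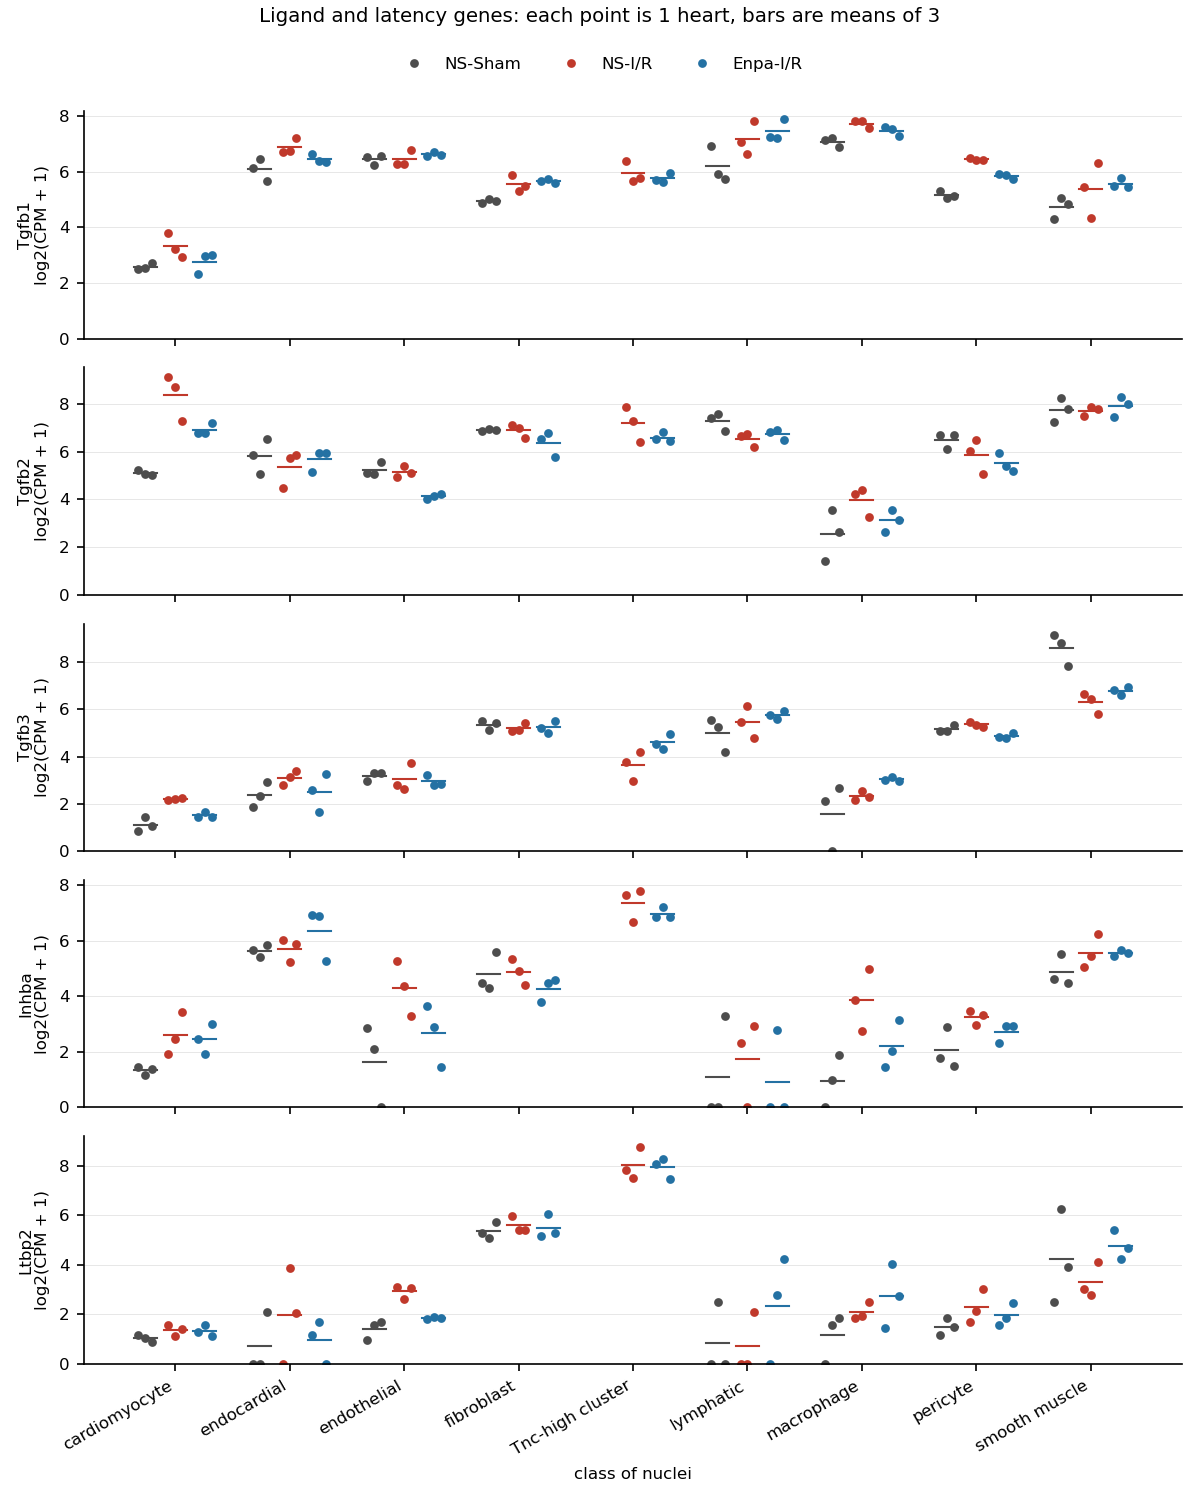
Tgfb1, Tgfb2, Tgfb3, Inhba and Ltbp2 by class of nuclei as log2(CPM + 1), 1 point per heart, with short bars at the mean of the 3 log2 values of a group and no sham points for the Tnc-high cluster. The rise of Tgfb2 is in cardiomyocyte-like nuclei, the fall of Tgfb3 in smooth muscle-like nuclei, and Inhba and Ltbp2 are highest in the Tnc-high cluster.

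Tgfb3 fell where it was highest. Smooth muscle-like nuclei held 567, 449 and 224 CPM in NS-Sham, 99.0, 84.8 and 54.4 CPM in NS-I/R and 111, 95.8 and 120 CPM in Enpa-I/R. Every injured heart was below every sham heart, and the injured groups overlapped. The fall with injury was 5.19-fold (-2.38 ± 0.33, adjusted p = 0.00155, edgeR), in a class with 5.67% of 6627 genes called. It rested on 367 UMIs in 217 sham nuclei and 92 UMIs in 284 NS-I/R nuclei. Enpa-I/R did not differ from NS-I/R by the test (0.47, adjusted p = 0.643) and was 3.76-fold below sham (-1.91 ± 0.32, adjusted p = 0.0286). This last call was lost without NS-Sham replicate 1 or 2 or any Enpa-I/R heart (-1.66 to -1.98, adjusted p 0.0726 to 0.168). The class held 37.4% of all Tgfb3 UMIs in sham, 11.5% in NS-I/R hearts and 18.5% with enpatoran. Its own markers summed to 6950 to 9180 CPM in sham and 4770 to 6660 CPM in NS-I/R, and its pericyte markers to 1820 to 2410 and 1560 to 1700 CPM, whose part in the fall was not tested.

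Outside smooth muscle, Tgfb3 stood at 33.4 to 39.5 CPM in sham fibroblast-, pericyte- and lymphatic-like nuclei, which overlapped, and none of these 3 classes was called. With the Tnc-high cluster added, fibroblast-like nuclei held 44.0, 33.7 and 41.7 CPM in sham and 23.6, 21.4 and 26.9 CPM in NS-I/R, a fall of 1.64-fold (-0.72 ± 0.18, adjusted p = 0.00792, edgeR) that was called in all 14 alternatives, and 29.0, 25 and 37.5 CPM in Enpa-I/R. The added cluster, with 18 nuclei in sham and 1522 in NS-I/R, held Tgfb3 at 12.7, 6.75 and 17.4 CPM in the latter. Cardiomyocyte-like nuclei, the lowest class, went from 0.798, 1.74 and 1.11 CPM to 3.43, 3.61 and 3.70 CPM with injury (1.49 ± 0.31, adjusted p = 0.0034, edgeR), with 1.76, 2.19 and 1.69 CPM in Enpa-I/R. These are 45, 114 and 61 UMIs, at most 0.0389 a nucleus, and with doublets kept the rise was 0.78 (adjusted p = 0.0674). Macrophage-like nuclei carried a like level of 4.05 CPM in NS-I/R, so the part of free RNA in the rise was not tested.

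Inhba and Ltbp2 were read mainly from the Tnc-high cluster after injury. Inhba stood there at 199, 99.3 and 220 CPM in NS-I/R and 115, 147 and 113 CPM in Enpa-I/R, which overlap (-0.47, adjusted p = 0.322, edgeR). The cluster gave 57.6% of Inhba UMIs in NS-I/R hearts and 51.9% with enpatoran, where fibroblast-like nuclei had given 55.0% in sham. Fibroblast-like nuclei outside the cluster did not change by the test, at 21.4, 18.6 and 47.4 CPM in sham and 39.2, 28.6 and 20.0 CPM in NS-I/R (0.07, adjusted p = 0.907). With the cluster added they went from 21.4, 18.9 and 50.9 CPM to 112, 59.4 and 126 CPM (1.78 ± 0.36, adjusted p = 0.00186) and to 58.1, 77.5 and 64.1 CPM with enpatoran. That last level was 1.20 above sham on the log2 scale (adjusted p = 0.0318), a call lost without NS-Sham replicate 1 or 2 or any Enpa-I/R heart (0.92 to 1.29, adjusted p 0.0601 to 0.14).

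Ltbp2 showed the same layout. In the Tnc-high cluster it was 227, 180 and 435 CPM in NS-I/R and 270, 313 and 176 CPM in Enpa-I/R, which overlap (-0.15, adjusted p = 0.804, edgeR), and the cluster gave 79.5% and 75.1% of its UMIs. Sham Ltbp2 came to 76.5% from fibroblast-like nuclei, at 38.4, 32.9 and 52.0 CPM. Their level in NS-I/R, 61.6, 41.3 and 42.0 CPM, overlapped with sham (0.26 ± 0.25, adjusted p = 0.478). With the cluster added, the level rose 3.89-fold in NS-I/R (1.96 ± 0.32, adjusted p = 0.000529) and 3.31-fold in Enpa-I/R (1.73, adjusted p = 0.00283). Over all nuclei, where Ltbp2 was 28.0, 21.8 and 54.4 CPM in NS-I/R, leaving out the high replicate 3 took the rise from 2.09 to 1.60. Among the fibroblast-like clusters Ltbp2 was highest in the one led by Kcnma1, Erbb4 and Dkk3, at 127, 227 and 159 CPM in sham, 137, 142 and 152 CPM in NS-I/R and 198, 273 and 149 CPM in Enpa-I/R.

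Endothelial-like nuclei also gained Inhba, from 6.25, 3.26 and 0 CPM to 37.2, 19.8 and 8.65 CPM with injury (2.73 ± 0.69, adjusted p = 0.00752, edgeR) and 11.5, 6.40 and 1.75 CPM with enpatoran (-1.67 against NS-I/R, adjusted p = 0.104). Most of it lay in 1 cluster, led by Kcnc2 and Kirrel3, with 144 of 163 NS-I/R UMIs and 21 of 26 sham UMIs, at 30.9, 12.4 and 0 CPM in sham and 178, 93.5 and 21.3 CPM in NS-I/R. Neutrophil markers in the class rose alongside, from 0.481 to 2.76 CPM in sham to 98.1 to 262 CPM in NS-I/R and 47.7 to 74.0 CPM in Enpa-I/R, and neutrophil-like nuclei had Inhba at 24.9 CPM in NS-I/R, with a part in the result that was not tested. Endothelial-like Ltbp2 went from 0.962, 2.00 and 2.21 CPM to 7.60, 5.14 and 7.35 CPM (1.89 ± 0.39, adjusted p = 0.00231) and to 2.55, 2.74 and 2.63 CPM with enpatoran (-1.33 ± 0.37 against NS-I/R, adjusted p = 0.0452). These are 14, 49 and 20 UMIs. Neutrophil-like nuclei had Ltbp2 at 7.15 CPM in NS-I/R, a like level, so the part of free RNA was not tested, and the enpatoran call was lost in 12 of 14 alternatives (-1.23 to -1.49, adjusted p 0.06 to 0.166), among them leaving out any heart but NS-I/R replicate 3. Inhba in cardiomyocyte-like nuclei went from 1.71, 1.26 and 1.60 CPM to 2.79, 4.47 and 9.76 CPM (1.91 ± 0.50, adjusted p = 0.0103, edgeR), below its level in neutrophil-like nuclei. In Enpa-I/R it was 4.55, 2.80 and 7.08 CPM (1.68 above sham, adjusted p = 0.0408), and that call was lost in 5 of 17 alternatives, leaving out any sham heart or Enpa-I/R replicate 1 or 3 (1.32 to 1.77, adjusted p 0.0881 to 0.145). Endocardial-like nuclei, the highest of the 8 classes for Inhba, held 49.3, 41.0 and 56.2 CPM in sham and 63.6, 36.7 and 57.5 CPM in NS-I/R and were not called.

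**Figure D3:**
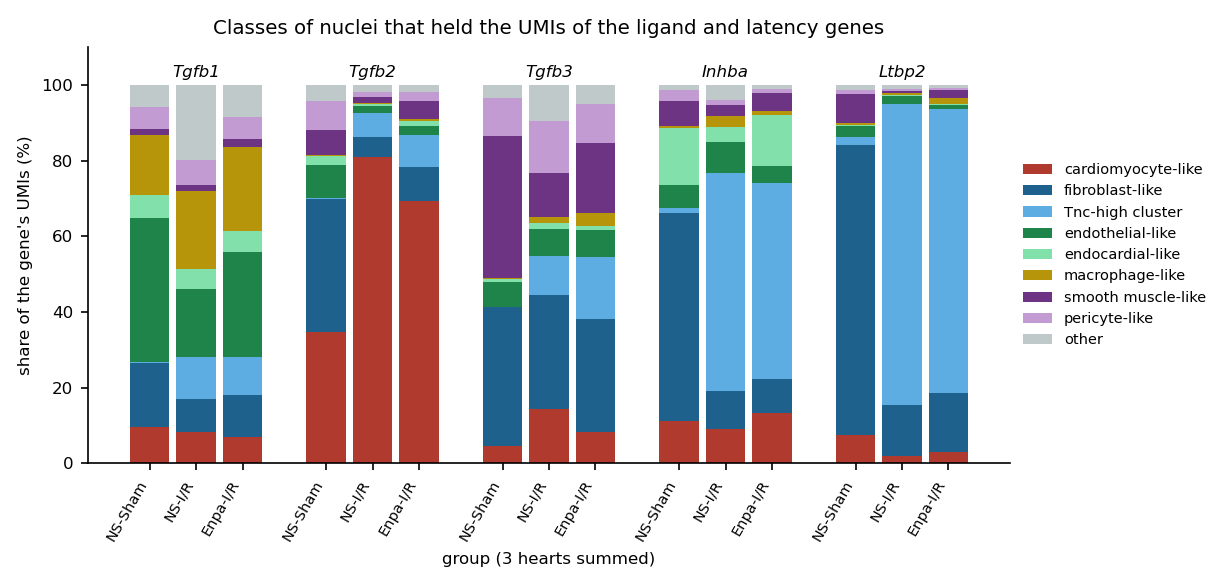
Share of each gene's UMIs that came from each class of nuclei, in percent, with the 3 hearts of a group summed, for Tgfb1, Tgfb2, Tgfb3, Inhba and Ltbp2. Tgfb2 shifts to cardiomyocyte-like nuclei, from 34.8% in the sham hearts to 80.9% with injury, and Ltbp2 to the Tnc-high cluster, with 79.5% in NS-I/R.

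The receptor Tgfbr2 moved in opposite directions in different classes. Fibroblast-like nuclei rose from 158, 167 and 166 CPM in NS-Sham to 398, 333 and 381 CPM in NS-I/R and 391, 386 and 357 CPM in Enpa-I/R. Every injured heart was above every sham heart, and the injured groups overlapped. The rise was 2.26-fold with saline (1.18 ± 0.11, adjusted p = 3.08e-05, edgeR) and 2.31-fold with enpatoran (1.21 ± 0.11, adjusted p = 0.000125), and the difference between the injured groups was 0.03 (adjusted p = 0.893). With the Tnc-high cluster added, the rise was smaller, at 0.75 with saline (adjusted p = 0.000115, edgeR) and 0.99 with enpatoran (adjusted p = 6.97e-05). The injured groups did not differ by the test there either. The fibroblast-like clusters differed between groups, and the one that held 17.9% of the class in sham, 74.5% in NS-I/R hearts and 50.4% with enpatoran went from 193, 186 and 184 CPM to 439, 369 and 466 CPM. In the cluster led by Kcnma1, Erbb4 and Dkk3 the groups overlapped, at 176, 253 and 191 CPM in sham and 258, 169 and 235 CPM in NS-I/R. The Tnc-high cluster held 193, 195 and 197 CPM in NS-I/R and 289, 263 and 296 CPM in Enpa-I/R, a difference that was not called (0.54, adjusted p = 0.0819) and that was 0.53 without NS-I/R replicate 3 (adjusted p = 0.00887, with 34.1% of all genes then called).

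Endothelial-like Tgfbr2 rose too, from 109, 114 and 122 CPM to 306, 351 and 181 CPM in NS-I/R (1.28 ± 0.20, adjusted p = 0.000303, edgeR), and was 210, 161 and 170 CPM in Enpa-I/R. NS-I/R replicate 3 lay among the Enpa-I/R hearts, and the difference between the injured groups was not called with it (-0.63, adjusted p = 0.0641) and was called without it (-0.84, adjusted p = 0.000139). Against sham, Enpa-I/R was 0.66 higher (adjusted p = 0.0454), a call lost in 8 of 17 alternatives, among them leaving out any sham or any Enpa-I/R heart or NS-I/R replicate 1 (0.53 to 0.73, adjusted p 0.052 to 0.186). The rise was seen in the St6galnac3 cluster, from 136, 116 and 166 CPM to 434, 536 and 263 CPM, and in the Kcnc2 cluster, from 149, 118 and 108 CPM to 284, 245 and 190 CPM.

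Macrophage-like Tgfbr2 fell. It was 321, 454 and 347 CPM in NS-Sham, 151, 147 and 176 CPM in NS-I/R and 225, 268 and 232 CPM in Enpa-I/R, with no overlap between the groups. The fall with injury was 2.38-fold (-1.25 ± 0.16, adjusted p = 3.6e-05, edgeR). Enpa-I/R was 1.53-fold above NS-I/R (0.61 ± 0.16, adjusted p = 0.0354) and 1.56-fold below sham (-0.64, adjusted p = 0.012). The difference between the injured groups was not called without NS-I/R replicate 1 or 2 or any Enpa-I/R heart (0.53 to 0.66, adjusted p 0.0768 to 0.17), and was 0.50 with doublets kept (adjusted p = 0.0623). The difference from sham was not called without NS-Sham replicate 2 or Enpa-I/R replicate 1 or 3 (-0.45 to -0.59, adjusted p 0.0571 to 0.108). Within the Mrc1 cluster Tgfbr2 was 318, 449 and 360 CPM in sham, 201, 181 and 285 CPM in NS-I/R and 306, 351 and 312 CPM in Enpa-I/R, while in the Arg1 cluster it was 91.0, 110 and 111 CPM in NS-I/R and 96.9, 135 and 100 CPM in Enpa-I/R. Fibroblast markers in macrophage-like nuclei summed to 1240 to 1410 CPM in sham and 384 to 473 CPM in NS-I/R, and their part in the fall was not tested. Lymphatic endothelial-like nuclei, the highest class in sham, fell from 505, 573 and 882 CPM to 221, 257 and 306 CPM (-1.30 ± 0.23, adjusted p = 0.000682, edgeR), with 421, 401 and 356 CPM in Enpa-I/R (0.58 above NS-I/R, adjusted p = 0.254).

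Tgfbr1, the kinase partner, fell in macrophage-like nuclei, its highest class in sham, from 463, 638 and 554 CPM in NS-Sham to 361, 280 and 306 CPM in NS-I/R (-0.81 ± 0.17, adjusted p = 0.00208, edgeR) and 231, 292 and 345 CPM in Enpa-I/R (-0.94 ± 0.17 against sham, adjusted p = 0.0017). The injured groups overlapped. In the Mrc1 cluster NS-I/R overlapped with sham, at 518, 358 and 362 CPM against 450, 592 and 504 CPM, and the Arg1 cluster held 175, 194 and 273 CPM. Cardiomyocyte-like Tgfbr1 went from 66.5, 76.1 and 72.2 CPM to 104, 88.2 and 83.6 CPM (0.36 ± 0.13, adjusted p = 0.0407), a call lost in 10 of 17 alternatives, among them leaving out any sham heart, NS-I/R replicate 1, NS-I/R replicate 2, or either of the first 2 Enpa-I/R replicates (0.27 to 0.41, adjusted p 0.0586 to 0.158). In fibroblast-like nuclei, at 254, 306 and 279 CPM in the 3 groups, it was not called.

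Among all member differences called between the injured groups, that of the transducer Smad3 in macrophage-like nuclei was the only one called under each of its alternatives. Its level there was 170, 170 and 193 CPM in NS-Sham, 54.1, 66.8 and 78.5 CPM in NS-I/R, and 154, 130 and 209 CPM in Enpa-I/R. The NS-I/R hearts lay below all others, and Enpa-I/R overlapped with sham. The fall with injury was 2.65-fold (-1.41 ± 0.20, adjusted p = 8.71e-05, edgeR), and Enpa-I/R was 2.45-fold above NS-I/R (1.29 ± 0.20, adjusted p = 0.0019), a call kept in all 17 alternatives (1.09 to 1.44). Enpa-I/R differed from sham by -0.11 (adjusted p = 0.739). The difference between the injured groups was seen in both macrophage-like clusters. The fall from sham is given for the Mrc1 cluster only, as the Arg1 cluster held 17, 19 and 8 sham nuclei. In the Mrc1 cluster Smad3 was 169, 164 and 177 CPM in sham, 33.8, 35.4 and 71.2 CPM in NS-I/R and 146, 123 and 209 CPM in Enpa-I/R, and in the Arg1 cluster 74.9, 98.2 and 83.2 CPM in NS-I/R and 168, 139 and 203 CPM in Enpa-I/R. Fibroblast-like nuclei had the highest Smad3 level of the 8 classes in every group, and the summed fibroblast markers in macrophage-like nuclei were 475 to 672 CPM in Enpa-I/R, above NS-I/R. Their part in the Smad3 difference was not tested.

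Cardiomyocyte-like Smad3 fell from 67.5, 60.7 and 59.3 CPM to 41.6, 32.9 and 44.1 CPM (-0.66 ± 0.16, adjusted p = 0.00727, edgeR) and was 53.5, 61.4 and 44.0 CPM with enpatoran (0.42, adjusted p = 0.0851). Endothelial-like Smad3 rose from 40.4, 31.1 and 37.0 CPM to 43.2, 51.0 and 62.3 CPM (0.54 ± 0.17, adjusted p = 0.0212), a call lost without NS-Sham replicate 2 (0.42, adjusted p = 0.113). In Enpa-I/R it was 51.6, 56.7 and 52.1 CPM (0.58 above sham, adjusted p = 0.0354), and that call was lost in 10 of 17 alternatives, among them leaving out any sham or any Enpa-I/R heart (0.46 to 0.67, adjusted p 0.0504 to 0.166). Fibroblast-like Smad3 was not called, at 293, 240 and 339 CPM in sham, 257, 244 and 252 CPM in NS-I/R and 344, 331 and 411 CPM in Enpa-I/R (0.53 ± 0.14 between the injured groups, adjusted p = 0.0639). Without NS-I/R replicate 3 that difference was 0.54 (adjusted p = 0.00984, with 28.5% of all genes then called).

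**Figure D4:**
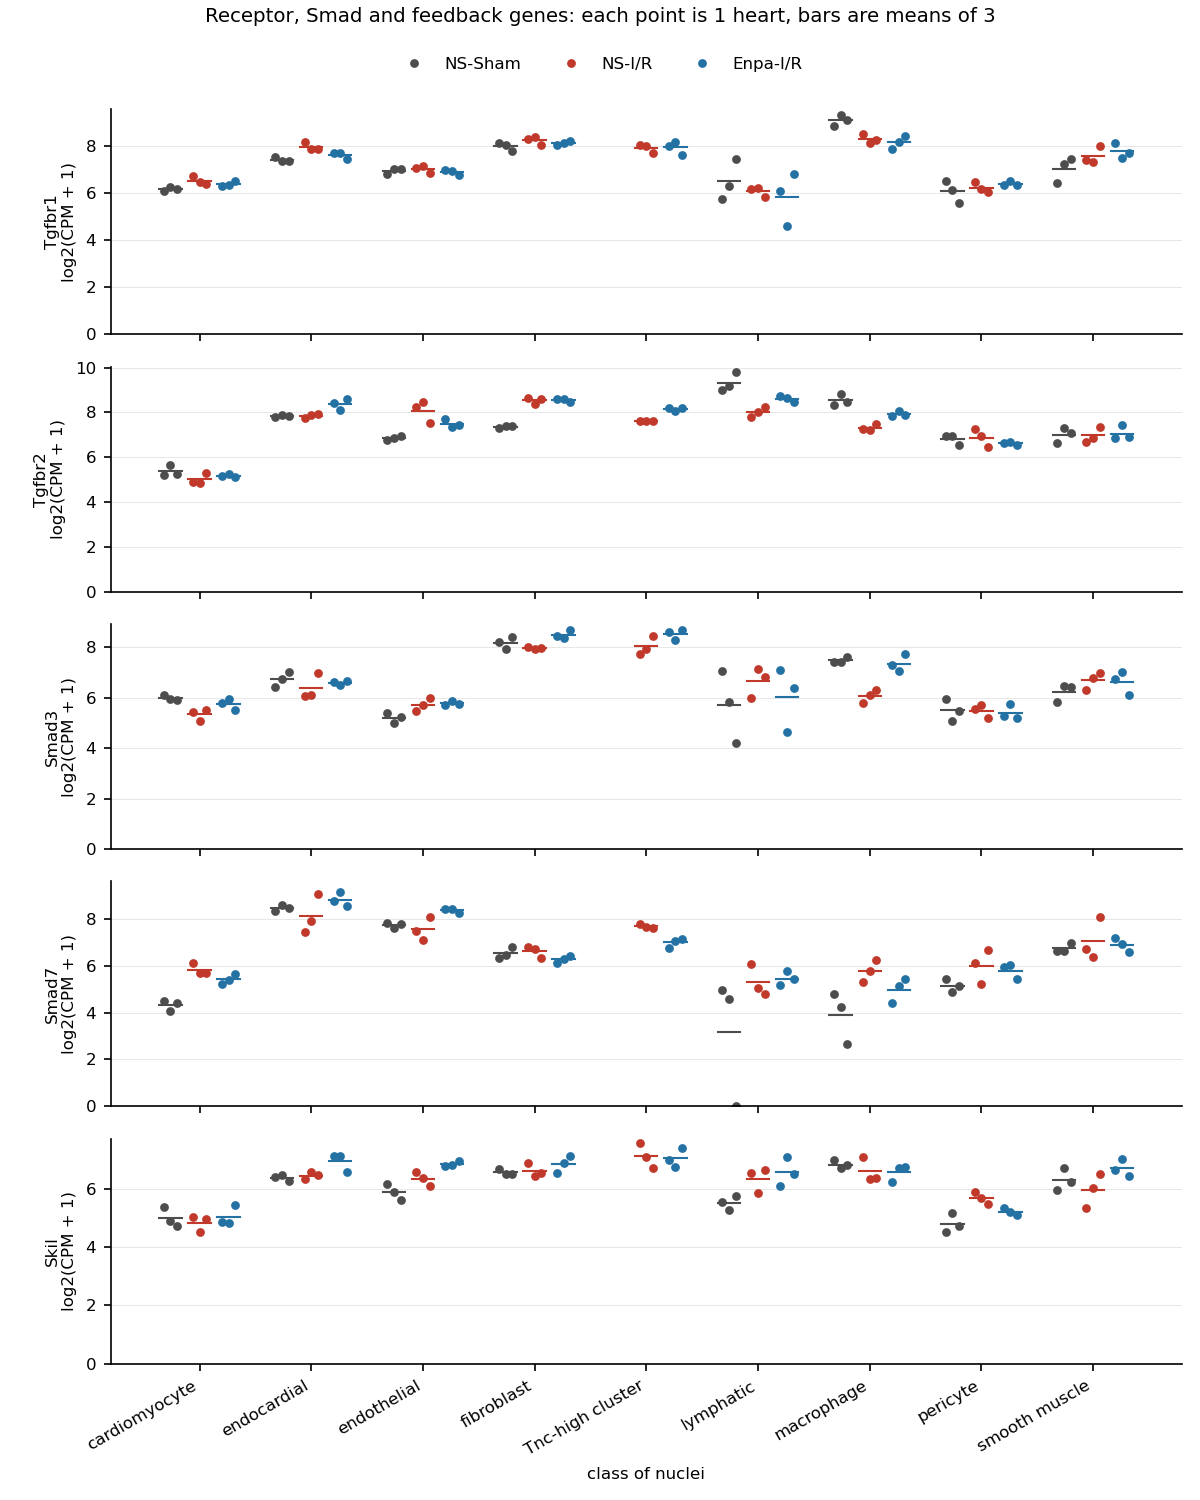
Tgfbr1, Tgfbr2, Smad3, Smad7 and Skil by class of nuclei as log2(CPM + 1), 1 point per heart, with short bars at the mean of the 3 log2 values of a group and no sham points for the Tnc-high cluster. Macrophage-like Smad3 is low in the NS-I/R hearts, at 54.1 to 78.5 CPM, and at 130 to 209 CPM in the Enpa-I/R hearts.

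Smad7, the inhibitory Smad that blocks the receptor, rose in cardiomyocyte-like nuclei from 21.4, 15.7 and 20.4 CPM to 69.2, 50.4 and 50.9 CPM in NS-I/R (2.98-fold, 1.57 ± 0.19, adjusted p = 0.000175, edgeR). Enpa-I/R, at 36.3, 41.4 and 49.7 CPM, was 2.22-fold above sham (1.15 ± 0.19, adjusted p = 0.00299) and lay below every NS-I/R heart without being called (-0.42, adjusted p = 0.127). Macrophage-like Smad7 went from 26.4, 17.8 and 5.30 CPM to 38.7, 53.5 and 73.8 CPM (3.11-fold, 1.64 ± 0.39, adjusted p = 0.00417) and was 20.1, 34.2 and 41.8 CPM with enpatoran (-0.80 against NS-I/R, adjusted p = 0.16). In NS-I/R it was 67.8, 90.5 and 98.3 CPM in the Arg1 cluster and 11.3, 16.8 and 33.5 CPM in the Mrc1 cluster. Neutrophil-like nuclei had Smad7 at 166 CPM in both injured groups, and neutrophil markers in macrophage-like nuclei rose from 71.5 to 97.5 CPM in sham to 402 to 971 CPM in NS-I/R and 241 to 267 CPM in Enpa-I/R. Their part in the rise was not tested.

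In endothelial-like nuclei Smad7 followed another course. It was 226, 192 and 222 CPM in NS-Sham, 178, 137 and 267 CPM in NS-I/R and 346, 339 and 301 CPM in Enpa-I/R, so that the enpatoran hearts were above all others. Injury with saline gave no call (-0.13, adjusted p = 0.613), and Enpa-I/R was 1.70-fold above NS-I/R (0.76 ± 0.19, adjusted p = 0.0306) and 1.55-fold above sham (0.63, adjusted p = 0.0405). The former call was lost without NS-I/R replicate 1 or 2 or any Enpa-I/R heart (0.57 to 0.83, adjusted p 0.076 to 0.12), and was 1.08 without the high NS-I/R replicate 3. The latter was lost without any sham or any Enpa-I/R heart (0.56 to 0.69, adjusted p 0.0739 to 0.149). Endocardial-like nuclei, the highest class for Smad7 in every group, held 325, 387 and 354 CPM in sham, 173, 236 and 528 CPM in NS-I/R and 436, 563 and 370 CPM in Enpa-I/R and were not called. There too NS-I/R replicate 3 was the high heart, and without it Enpa-I/R was 1.15 above NS-I/R (adjusted p = 0.000721, with 11.0% of genes called). In fibroblast-like nuclei with the Tnc-high cluster Smad7 was 159, 144 and 139 CPM in NS-I/R (0.66 above sham, adjusted p = 0.00356) and 84.9, 100 and 110 CPM in Enpa-I/R (-0.59, adjusted p = 0.0334). This last call was lost in 7 of 14 alternatives, among them leaving out sham replicate 2, either of NS-I/R replicates 1 and 2, or any Enpa-I/R heart (-0.48 to -0.66, adjusted p 0.0516 to 0.126). Pericyte-like Smad7 overlapped between sham (42.7, 28.5 and 34.0 CPM) and NS-I/R (67.6, 36.0 and 99.4 CPM) and was called (0.98, adjusted p = 0.0327), but not without NS-Sham replicate 2 or 3 or NS-I/R replicate 1 or 3 (0.59 to 0.99, adjusted p 0.069 to 0.157).

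Skil, which encodes the Smad corepressor SnoN, was called in 2 classes. In endothelial-like nuclei it was 69.8, 57.4 and 47.5 CPM in NS-Sham, 93.2, 81.9 and 66.6 CPM in NS-I/R and 107, 110 and 122 CPM in Enpa-I/R. The enpatoran hearts were the highest, 1.93-fold above sham (0.95 ± 0.16, adjusted p = 0.00182, edgeR) and not called against NS-I/R (0.48, adjusted p = 0.0754). The NS-I/R rise (0.47, adjusted p = 0.038) overlapped with sham and was lost in 9 of 17 alternatives, among them leaving out NS-Sham replicate 2 or 3, NS-I/R replicate 1 or 2, or any Enpa-I/R heart (0.35 to 0.46, adjusted p 0.051 to 0.163). Pericyte-like Skil rose from 22, 35 and 25 CPM to 57.6, 50.6 and 43.6 CPM (0.83 ± 0.24, adjusted p = 0.0209), a call lost without NS-Sham replicate 1 or 3 or NS-I/R replicate 1 or 2 (0.68 to 0.83, adjusted p 0.051 to 0.0863). Among the tested classes, Skil was highest in macrophage-like nuclei in sham (112 CPM). In the injured hearts it was highest, among the tested classes, in neutrophil-like nuclei, whose levels are unscaled (156 CPM in NS-I/R and 220 CPM in Enpa-I/R, 0.51, adjusted p = 0.303). T and NK-like nuclei were too few to test and are left out of this ranking. Their Skil values are given under the other observations.

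Counted by class, injury with saline changed 7 of 10 members in cardiomyocyte-like nuclei (6 up, 1 down), where 45.3% of 13959 genes were called. In endothelial-like nuclei 5 of 10 rose against 35.4% of genes, in macrophage-like nuclei 2 rose and 3 fell of 7 tested against 34.9%, and in pericyte-like nuclei 3 of 8 rose against 23.5%. Fibroblast-like nuclei had 2 of 10 called against 27.8%, and with the Tnc-high cluster 6 of 10 (5 up, 1 down) against 45.6%. One member was called in lymphatic endothelial-like nuclei (of 7, against 13.5%) and 1 in smooth muscle-like nuclei (of 9, background given above). In endocardial-like nuclei 0 of 8 were called by edgeR or DESeq2 (2 at an unadjusted p under 0.05) against 11.0% of genes, and 2 without NS-I/R replicate 3. The members were not tested as a group against these backgrounds, and their share was below the background in fibroblast- and endocardial-like nuclei and close to it in lymphatic nuclei. The median member changed by 0.72 on the log2 scale in cardiomyocyte-like, 0.27 in endothelial-like, 0.08 in fibroblast-like and -0.18 in macrophage-like nuclei, and the median gene by 0.01 to 0.03. In lymphatic, macrophage-, pericyte-, smooth muscle- and endocardial-like nuclei the low-count filter left out 1 to 3 of the weakly read members, mostly Inhba, Ltbp2 and Tgfb3.

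Whether a change differed between classes was tested as an interaction against fibroblast-like nuclei. Cardiomyocyte-like nuclei differed in 4 of 10 members (22.2% of genes), with Tgfb2 3.26 ± 0.36 higher in log2 change (adjusted p = 7.28e-05, edgeR) and Tgfbr2 -1.62 ± 0.16 (adjusted p = 3.96e-05). Macrophage-like nuclei differed in 4 of 7 (14.2% of genes), with Tgfbr2 at -2.37 ± 0.17 (adjusted p = 3.47e-08) and Smad3 at -1.19 ± 0.19 (adjusted p = 0.000307). Endothelial-like nuclei differed in 3 of 10 (9.82% of genes), and their Tgfbr2 rise did not differ from that of fibroblast-like nuclei by the test (0.05 ± 0.21, adjusted p = 0.927). The endothelial difference in Ltbp2 was 1.55 against fibroblast-like nuclei alone and -0.01 once the Tnc-high cluster was added to them (adjusted p = 0.992). The other differences above are against fibroblast-like nuclei alone and depend on that choice too. Adding the cluster took the fibroblast-like injury change from 1.18 to 0.75 in Tgfbr2, from 0.07 to 1.78 in Inhba and from 0.10 to 0.66 in Smad7.

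**Figure D5:**
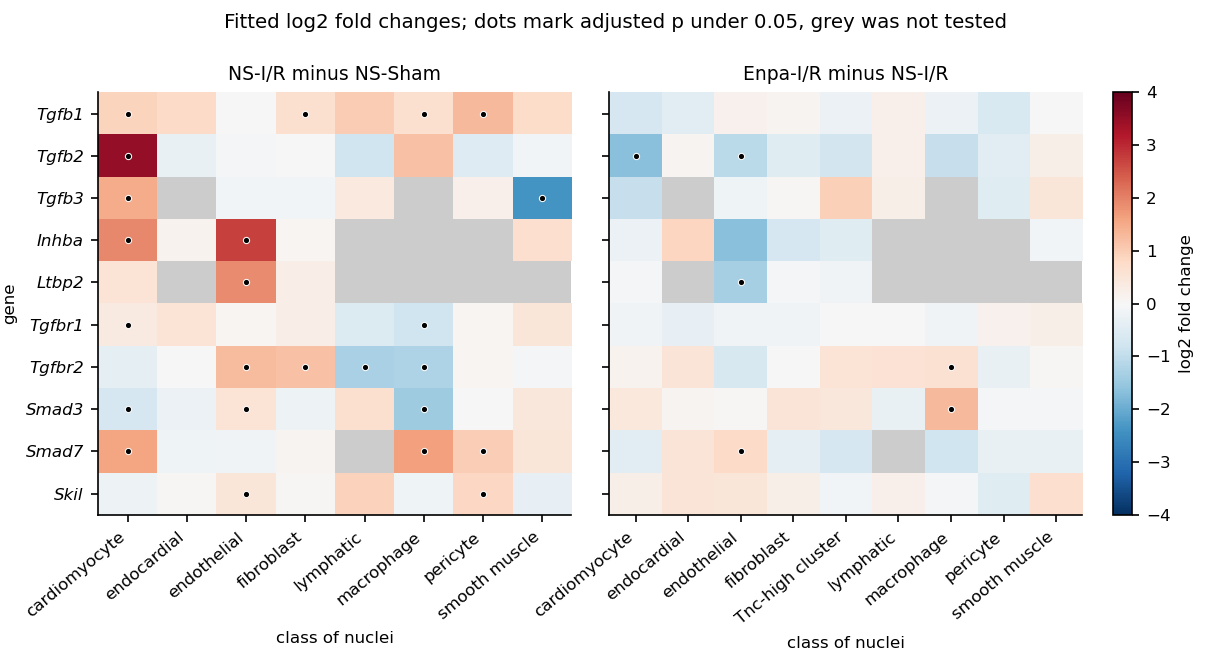
Log2 fold changes of the 10 members by class of nuclei, injury with saline against sham in 1 panel and Enpa-I/R against NS-I/R in the other, with a dot where the adjusted p was under 0.05 and grey where a gene or class was not tested. Most dots are in the injury panel, and the enpatoran panel has few, among them Tgfb2 (lower) in cardiomyocyte-like and Smad3 (higher) in macrophage-like nuclei.

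Between the injured groups few members were called. Over all nuclei Tgfb2 was 2.39-fold lower (-1.26 ± 0.32, adjusted p = 0.0303, edgeR) and Smad3 1.31-fold higher (0.39, adjusted p = 0.0381) in Enpa-I/R, 2 of 10 members against 16.5% of genes. The Tgfb2 call over all nuclei was lost without sham replicate 3, either of NS-I/R replicates 1 and 2, or any Enpa-I/R heart (-0.98 to -1.33, adjusted p 0.0515 to 0.109), and the Smad3 call was lost without any sham or Enpa-I/R heart or NS-I/R replicate 1 or 2 (0.31 to 0.42, adjusted p 0.0531 to 0.159). By class the count was 1 of 10 in cardiomyocyte-like (Tgfb2, against 18.9%), 3 of 10 in endothelial-like (Tgfb2, Ltbp2 and Smad7, against 6.96%) and 2 of 7 in macrophage-like nuclei (Smad3 and Tgfbr2, against 6.32%). No member was called by edgeR in endocardial-like (0.947% of genes), lymphatic (1.07%), pericyte-like (5.35%), smooth muscle-like (0.0151%), fibroblast-like (1.36%) and neutrophil-like nuclei (1.94%) or in the Tnc-high cluster (0.0358%). At an unadjusted p under 0.05 these held 3, 1, 2, 0, 2, 0 and 3 members, and DESeq2, not run for the last pair, called 1 in fibroblast-like nuclei and 0 in the other 4. Fibroblast-like nuclei with the Tnc-high cluster had 1 of 10 (Smad7, against 8.85%).

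The heart that stood apart weighed on this comparison. Without NS-I/R replicate 3 the calls between the injured groups rose to 4 of 10 in cardiomyocyte-like, 6 of 10 in endothelial-like, 3 of 10 in fibroblast-like and 3 of 8 in pericyte-like nuclei and 5 of 10 in the Tnc-high cluster. All genes rose with them, to 43.8%, 27.0%, 28.5%, 23.5% and 34.1% called. Among the members then called, Tgfb2 was lower with enpatoran in the Tnc-high cluster (-1.04, adjusted p = 0.00284, edgeR), fibroblast-like (-0.63, adjusted p = 0.021) and pericyte-like nuclei (-0.72). Tgfbr2 in endothelial-like nuclei and in the Tnc-high cluster and Smad3 in fibroblast-like nuclei were then called too, as given above. The remaining calls are not named here.

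Against sham, the enpatoran hearts still differed in 6 of 10 members over all nuclei (5 up, 1 down, against 21.1% of genes): Ltbp2 by 1.76, Inhba by 1.31, Smad7 by 0.58, Tgfb1 by 0.57, Tgfbr2 by 0.45 and Tgfb3 by -0.50. The Tgfb1 call was lost without any 1 of NS-Sham replicates 2 and 3 and Enpa-I/R replicate 2 (0.46 to 0.57, adjusted p 0.0613 to 0.0713, edgeR), and the Tgfb3 call without any 1 of NS-Sham replicates 1 and 2 and Enpa-I/R replicates 1 and 2 (-0.41 to -0.52, adjusted p 0.0737 to 0.113). By class, 3 of 10 were called in cardiomyocyte-like (18.2% of genes), 5 of 10 in endothelial-like (12.6%), 2 of 10 in fibroblast-like (5.1%), 4 of 10 in fibroblast-like nuclei with the Tnc-high cluster (23.0%), 2 of 7 in macrophage-like (17.6%) and 1 of 9 in smooth muscle-like nuclei (0.377%). Endocardial-like (1.16%), lymphatic (1.31%) and pericyte-like nuclei (5.27%) had 0 called by edgeR and by DESeq2, with 3, 3 and 3 members at an unadjusted p under 0.05.

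Other genes of the pathway were read from 5 lists of 70 genes. Target genes of TGF-beta signalling rose with injury in 10 of 18 tested in cardiomyocyte-like, 11 of 16 in endothelial-like, 10 of 14 in macrophage-like and 8 of 19 in fibroblast-like nuclei, and 1 fell, in fibroblast-like nuclei. The shares of all genes called in these classes were 45.3%, 35.4%, 34.9% and 27.8%, in both directions together. The targets' median change was 0.94, 0.92, 1.93 and 0.50 on the log2 scale in that order. In cardiomyocyte-like nuclei Ccn2, a matrix-associated growth regulator, went from 21.4 to 135 and 76.2 CPM, and Pmepa1, an inhibitor that the pathway induces, from 23.1 to 90.8 and 50.6 CPM, both called in both comparisons. In smooth muscle-like nuclei 2 of 16 targets were called, both lower, against 5.67% of all genes. Pericyte-like nuclei had 6 up and 1 down of 16 against 23.5%. Endocardial-like nuclei had 7 up and 1 down of 13 against 11.0%, and lymphatic nuclei 6 up of 9 against 13.5%. Between the injured groups 1 target was higher and 4 were lower of 18 in cardiomyocyte-like nuclei, where 18.9% of all genes were called, and 3 of 16 were lower in endothelial-like nuclei, against 6.96%. Many of these genes answer to other signals too, which was not separated here.

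Among genes for latency and activation, Thbs1, the activator thrombospondin, went from 2.75 to 925 CPM in macrophage-like nuclei (8.00 ± 0.44, adjusted p = 8.58e-09, edgeR) and was 338 CPM with enpatoran (-1.46, adjusted p = 0.00343). Nrros, which anchors latent ligand on macrophages, fell there from 726 to 387 CPM (-0.91, adjusted p = 0.00036) and was 627 CPM with enpatoran (0.69, adjusted p = 0.0153). Itgb6, a subunit of a ligand-freeing integrin, fell in cardiomyocyte-like nuclei from 341 to 17.7 CPM (-4.27 ± 0.42, adjusted p = 6.01e-05) and was 66.0 CPM with enpatoran. Ltbp1, which ties latent ligand to the matrix, fell in endothelial-like nuclei from 150 to 40.5 CPM (-1.90, adjusted p = 7.79e-05) and was 120 CPM with enpatoran (1.57, adjusted p = 0.00491). The list as a whole had 2 up and 3 down of 12 in cardiomyocyte-like, 4 up and 6 down of 11 in endothelial-like, 3 up and 3 down of 8 in macrophage-like and 2 up and 5 down of 12 in fibroblast-like nuclei. Against the shares of all genes given for the targets, the 5 of 12 in cardiomyocyte-like nuclei lay near the background of 45.3%, and the 10 of 11 in endothelial-like nuclei stood beside one of 35.4%.

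Of receptors and co-receptors, 1 rose and 2 fell of 10 in cardiomyocyte-like, 1 and 3 of 9 in endothelial-like, 1 and 4 of 9 in macrophage-like and 1 and 1 of 9 in fibroblast-like nuclei. The counts in cardiomyocyte- and fibroblast-like nuclei lay below the 45.3% and 27.8% of all genes called there. Tgfbr3, the co-receptor betaglycan, fell in cardiomyocyte-like nuclei from 330 to 204 CPM (-0.69) and in endothelial-like nuclei from 171 to 94.1 CPM (-0.86). Acvr1b, an activin receptor, rose in fibroblast-like nuclei from 47.2 to 115 CPM (1.29, adjusted p = 0.00149, edgeR). Other Smads and regulators had 2 up and 1 down of 14 in cardiomyocyte-like, 3 up of 15 in endothelial-like and 2 up and 1 down of 14 in fibroblast-like nuclei, each below the share of all genes. In macrophage-like nuclei edgeR called 0 of 14, with 5 at an unadjusted p under 0.05, and DESeq2 also called 0 of 14, where 34.9% of all genes were called. Among activin and BMP ligands and binders, Inhbb, another activin subunit, went in endothelial-like nuclei from 1.24 to 69.7 CPM (5.86 ± 0.33, adjusted p = 2.23e-07) and was 21.8 CPM with enpatoran (-1.68, adjusted p = 0.00128). Bmp6 fell there from 1220 to 637 CPM (-0.94) and in fibroblast-like nuclei from 393 to 190 CPM (-1.05, adjusted p = 0.00117).

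Over 24 points, the 8 tested classes in 3 groups, the genes whose mean level followed each member most closely were listed by Pearson's r on log2(CPM + 1), as a description, since the points share libraries. Smad7 was followed most closely by the other inhibitory Smad gene, Smad6 (r = 0.915). Ltbp2 was followed by Ccn5 (0.92), Inhba by Ptgis (0.931), Tgfb1 by Mcmbp (0.968), Tgfb2 by Fhl1 (0.891), Tgfb3 by Med14 (0.899), Tgfbr1 by Adcy7 (0.898), Tgfbr2 by Fam102b (0.923), Smad3 by Ifi205 (0.838) and Skil by Il31ra (0.844).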

How the data were processed

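Single-nucleus RNA was measured in 9 hearts, 1 library each. The deposited values are raw UMI counts per gene and barcode; per the file headers they came from cellranger 8.0.0, while the submitters' processing notes name Cell Ranger 6.1.1, Seurat and the builds GRCm39 and GRCh38. The annotation release, intron counting, a cell annotation and batches are not given in the sources used here, so genes that overlap or lie antisense to a member may share its reads. The lowest UMI count of a deposited barcode was 500 or 501. Library totals of 19651794 to 38970153 UMIs set the counting precision. Nothing in the labels says that the 3 hearts of a group were handled independently beyond being separate hearts, and p-values measure the spread between them.

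Nuclei with at least 500 genes and at most 5% mitochondrial UMIs were kept (11.8% to 23.7% of barcodes per library exceeded that limit). Scrublet scores removed the top 0.8% per 1000 barcodes, 133 to 538 per library. Clustering used scanpy 1.11.5 with 2000 variable genes, 30 principal components, 15 neighbours and Leiden resolution 1, which gave 26 clusters. It left out 80 listed genes (the members and the pathway genes) and mitochondrial and sex-linked genes. Clusters were named from 15 marker sets: at least 3 markers detected in 5% of nuclei and 2 times the median cluster, with a lead of 0.5 on the log2 scale. The members, lists and naming thresholds were chosen with earlier results of these data known.

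Counts were summed per heart and class and tested with edgeR 4.0.16 (R 4.3.3; filterByExpr, TMM with factors of 0.931 to 1.08, quasi-likelihood test, all 9 libraries in 1 fit) where every library had at least 25 nuclei. Neutrophil-like nuclei and the Tnc-high cluster were tested in the 6 injured hearts only. Differences between classes were tested as interactions with the library as a block. Beside the members, pathway genes were named from those called between NS-I/R and NS-Sham in cardiomyocyte-, endothelial-, fibroblast- or macrophage-like nuclei, at most 4 per list and class, by the largest change among those averaging 10 CPM or more over the 9 libraries. Likeness used the same minimum. Alternatives were DESeq2 1.42.0, no low-count filter, a replicate block, the 6 libraries of each comparison, leaving out each heart, a mitochondrial limit of 20%, doublets kept and Leiden resolution 2. The tests were checked on simulated data with known changes, of which the smallest shares were recovered in smooth muscle- and lymphatic endothelial-like nuclei. Tests of the Tnc-high cluster, alone and with fibroblast-like nuclei, were added after the data were seen. Promoter sequences are from RefSeq on GRCm38.p6, and the other members' sequences and proteins were not used here.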

Additional observations from a re-analysis of the deposited data

Results flagged for a closer look

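In 11 results, the injury effect (NS-I/R minus NS-Sham, log2) of a member differed between a class and fibroblast-like nuclei by the interaction test (edgeR, adjusted over all genes tested). The fibroblast-like nuclei were taken without the Tnc-high cluster. Cardiomyocyte-like nuclei differed by 3.26 ± 0.36 in Tgfb2 (adjusted p = 7.28e-05), -1.62 ± 0.16 in Tgfbr2 (adjusted p = 3.96e-05), 1.46 ± 0.36 in Tgfb3 (adjusted p = 0.0116) and 1.40 ± 0.18 in Smad7 (adjusted p = 0.000269). Endothelial-like nuclei differed by 0.70 ± 0.18 in Smad3 (adjusted p = 0.0183), 1.55 ± 0.39 in Ltbp2 (adjusted p = 0.0173) and 2.44 ± 0.68 in Inhba (adjusted p = 0.0299). Macrophage-like nuclei differed by -1.02 ± 0.19 in Tgfbr1 (adjusted p = 0.00104), -1.19 ± 0.19 in Smad3 (adjusted p = 0.000307), -2.37 ± 0.17 in Tgfbr2 (adjusted p = 3.47e-08) and 1.54 ± 0.42 in Smad7 (adjusted p = 0.018). The Tgfb3 difference of cardiomyocyte-like nuclei and the Ltbp2 difference of endothelial-like nuclei rest on at most 114 and 49 UMIs in those classes.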

How the results depend on the processing

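Counts of called members were recomputed under 553 alternatives to 35 counts, and 449 stayed within 1.5 times the main count. The share of all genes called moves with the setting too, as given above for leaving out NS-I/R replicate 3. It is not given here for each alternative, so a moved count is not a result about the members alone. Of 2882 alternatives to 179 single-gene log2 fold changes, 2526 kept their direction and side of the threshold, 354 lost the call and 2 changed direction. Both changes of direction came with adding the Tnc-high cluster to fibroblast-like nuclei: Nedd4l, after injury, went from -0.36 to 0.41 (adjusted p = 0.0251, edgeR), and the Ltbp2 difference between endothelial- and fibroblast-like nuclei from 1.55 to -0.01 (adjusted p = 0.992). The same addition took the fibroblast-like counts from 2 to 6 after injury, from 0 to 1 between the injured groups and from 2 to 4 between Enpa-I/R and sham. With the 6 libraries of a comparison alone, the counts between the injured groups went from 2 to 0 over all nuclei, from 1 to 0 in cardiomyocyte-like nuclei, from 3 to 1 in endothelial-like nuclei and from 1 to 0 in fibroblast-like nuclei with the Tnc-high cluster, and those between Enpa-I/R and sham from 0 to 1 in lymphatic and from 0 to 2 in pericyte-like nuclei. DESeq2 took the counts between the injured groups from 0 to 1 in fibroblast-like nuclei and from 1 to 2 with the Tnc-high cluster. Leiden resolution 2 gave pericyte-like nuclei 1 call instead of 0 in both enpatoran comparisons. With doublets kept, the counts between the injured groups were 2 instead of 1 in cardiomyocyte-like and 1 instead of 2 in macrophage-like nuclei. A mitochondrial limit of 20% gave 1 instead of 2 over all nuclei and 1 instead of 0 in pericyte-like nuclei between the injured groups, and after injury 1 instead of 0 in endocardial-like and 2 instead of 5 in endothelial-like nuclei. In that last count Skil lost its call (0.44, adjusted p = 0.0507, edgeR), while Inhba and Ltbp2 were not among the genes tested. Without the low-count filter, the counts between the injured groups were 5 instead of 3 in endothelial-like, 1 instead of 0 in fibroblast-like, 4 instead of 1 with the Tnc-high cluster and 3 instead of 0 in that cluster alone, after injury 2 instead of 1 in lymphatic and in smooth muscle-like nuclei, and against sham with enpatoran 1 instead of 0 in lymphatic and pericyte-like nuclei. The cause of these moves was not tested.

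Leaving out 1 heart at a time gave ranges of, between the injured groups, 0 to 2 over all nuclei, 0 to 4 in cardiomyocyte-like, 0 to 1 in endocardial-like, 0 to 6 in endothelial-like, 0 to 3 in fibroblast-like (also with the Tnc-high cluster), 1 to 2 in macrophage-like, 0 to 3 in pericyte-like, 0 to 2 in neutrophil-like nuclei and 0 to 5 in the Tnc-high cluster. After injury they were 0 to 2 in endocardial-like, 3 to 6 in endothelial-like, 1 to 3 in fibroblast-like, 1 to 2 in lymphatic and 1 to 3 in pericyte-like nuclei. Between Enpa-I/R and sham they were 0 to 1 in endocardial- and smooth muscle-like, 2 to 5 in endothelial-like, 1 to 2 in fibroblast- and macrophage-like, 0 to 2 in pericyte-like nuclei and 2 to 5 in fibroblast-like nuclei with the Tnc-high cluster. For the class difference of endothelial- against fibroblast-like nuclei the range was 0 to 5.

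Hearts of different groups carry the same replicate numbers, but the deviations of same-numbered hearts did not go together (9 correlations of -0.131 to 0.0585, none over 0.1), so the numbers were not treated as pairing. With the replicate number as a block the counts went from 2 to 1 over all nuclei and from 1 to 2 in fibroblast-like nuclei with the Tnc-high cluster between the injured groups, and from 5 to 3 in endothelial-like nuclei between Enpa-I/R and sham. Among the single calls lost under it was the rise of Tgfb1 in cardiomyocyte-like nuclei (0.89, adjusted p = 0.0608, edgeR). The depth limits what could be seen of Tgfb3, Inhba and Ltbp2, which were under the low-count filter in several small classes.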

Other observations

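In classes too small to test, values are given without a comparison, as CPM in replicates 1, 2 and 3, for members chosen after their values were seen. B-like nuclei (105 nuclei in sham, 90 in NS-I/R hearts and 62 with enpatoran, the order used for the other classes too) carried Tgfb1 at 160, 213 and 233 CPM in sham, 197, 182 and 254 CPM in NS-I/R and 181, 205 and 144 CPM in Enpa-I/R, from 43, 39 and 24 UMIs. Their Tgfbr2 was 554, 647 and 233 CPM in sham, 666, 428 and 582 CPM in NS-I/R and 483, 519 and 575 CPM in Enpa-I/R. T and NK-like nuclei (58, 91 and 48) had Smad3 at 320, 163 and 398 CPM in sham, 132, 144 and 130 CPM in NS-I/R and 370, 160 and 335 CPM in Enpa-I/R, from 46, 41 and 27 UMIs. Their Skil was 24.6, 17.2 and 85.3 CPM in sham, 204, 112 and 210 CPM in NS-I/R and 56.9, 64.2 and 37.2 CPM in Enpa-I/R, from 6, 58 and 5 UMIs. Epicardial-like nuclei (77, 51 and 53), the outer lining of the heart, had Smad3 at 63.3, 79.2 and 68.1 CPM in sham, 334, 237 and 170 CPM in NS-I/R and 213, 167 and 225 CPM in Enpa-I/R. Schwann-like nuclei (65, 120 and 71) had Tgfb2 at 158, 83.2 and 106 CPM in sham and 90.2, 72.3 and 155 CPM in NS-I/R, from 24 and 53 UMIs.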
